A study of Mus musculus with 12 samples.

Results

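SmoM2, an active form of the hedgehog signal transducer Smoothened, was added to a forebrain that already carried stabilised beta-catenin, and RNA levels with and without it were compared across all genes. The comparison sets the 3 arrays titled GBS against the 3 arrays titled GB, chosen by their titles alone, which is 6 of the 12 arrays of the series. GBS mice had the genotype hGFAP-cre::Ctnnb1(ex3)Fl/+SmoM2Fl/+, and the tissue on their arrays is labelled as tumor. GB mice had the genotype hGFAP-cre::Ctnnb1(ex3)Fl/+, and their tissue is labelled as forebrain. The other groups are GS, hGFAP-cre::SmoM2Fl/+, and Control, Ctnnb1(ex3)Fl/+SmoM2Fl/+ without Cre, with 3 arrays each. All mice were untreated and were taken on postnatal day 0, and each array is labelled as a biological replicate, so p-values measure the spread between such replicates. Every GBS and GB mouse carried both the Cre transgene and the Ctnnb1 allele, so neither group is wild type and the SmoM2 allele is the difference between their labelled genotypes. The labels do not give sex, and levels of sex-linked genes, given below, differed between the GBS arrays and some GB arrays. The human GFAP promoter drives Cre in radial glia, so recombined cells are those cells and their descendants, and the bulk tissue also holds vessels, microglia and other cells that never had Cre. The titles name forebrain for all 12 arrays, GBS included. Because the tissue is labelled as tumor in GBS and as forebrain in GB, the SmoM2 allele and the tissue taken cannot be told apart here.

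Smoothened passes the hedgehog signal on when the receptor Patched 1 no longer holds it in check, and SmoM2 signals without that release. The signal ends in the GLI transcription factors, which switch on target genes that include Ptch1, Gli1 and Hhip, all of which feed back on the pathway. Removal of exon 3 of Ctnnb1 takes away the sites at which beta-catenin is marked for destruction, and the stable protein works with the TCF and LEF factors to switch on WNT targets such as Axin2 and Lef1. In the embryonic forebrain hedgehog signals pattern the ventral side and support dividing precursors, while WNT signals pattern the dorsal side and its medial edge, the cortical hem.

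Values are RMA levels on a log2 scale, in which a difference of 1 is a 2-fold change, and a gene was called where its limma p-value, adjusted by Benjamini-Hochberg over 14195 tested genes, was under 0.05. Levels of different genes are not compared, since each probe set has its own brightness. The array labelled GB replicate 2 stood apart. Across the tested genes it correlated at 0.616 and 0.586 with the other GB arrays, against 0.982 between those 2 arrays, and its median absolute difference from them was 0.346 and 0.367, against 0.0878 between them. GB replicate 2, GS replicate 3 and Control replicate 3 deviated together. Their deviations from their group means correlated over genes at 0.833 (GB and GS), 0.801 (GB and Control) and 0.739 (GS and Control). The closest pair of the 12 arrays differed by a median of 0.102 over all probe sets, so no pair held the same values. Xist, the RNA that coats the inactive X chromosome in females, was at 4.85 to 4.94 on the GBS arrays and at 4.89, 8.66 and 10.53 on the GB arrays, and the Y-linked genes Eif2s3y, Kdm5d and Uty were lower on GB replicates 2 and 3 than on every GBS array. The part of sex in the results was tested only through fits that held the Xist level as a covariate. Medians of the arrays ran from 6.52 to 6.69.

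With SmoM2 added, far more genes rose than fell, and the rises were larger. Of the 14195 genes, 1363 (9.6%) were called higher in GBS than in GB and 443 (3.12%) were called lower. Of those that rose, 463 did so by at least 2-fold and 35 by at least 4-fold. Of those that fell, 4 did so by at least 2-fold, namely Mir680-1, Mir680-2, Snord49b and Cacng3, and 0 by at least 4-fold. The median difference was 0.82 over the genes called higher and -0.43 over those called lower, beside a median of -0.11 over all tested genes. All 3 GBS arrays lay above all 3 GB arrays for 3433 genes (24.2%) and below them for 3364 genes (23.7%), so that order of the arrays alone was about as frequent in each direction. Such an order held for 1362 of the genes called higher and 442 of those called lower. A lack of overlap thus adds little to a call.

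The counts moved with the array left out of the fit. They were 396 higher without GBS replicate 2, 816 without GBS replicate 3 and 2199 without GB replicate 3, and lay between 925 and 1578 without any other array. Calls of lower genes ran from 25 without GBS replicate 2 to 1045 without GB replicate 3, and leaving out any array other than GS replicate 3 moved that count by more than 1.5 times. In the 12 fits that each left out an array, 390 genes were called higher in every fit and 22 were called lower in every fit. A fit on the 6 GBS and GB arrays alone called 77 genes higher and 0 lower (limma), with 1330 genes lower at an unadjusted p under 0.05. With the Xist level as a covariate, 246 genes were called higher and 16 lower, all of them among the calls made without it. Sizes moved less than calls: all 1363 and all 443 genes kept their sign with that covariate, and their median differences were 0.75 and -0.41.

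**Figure D1:**
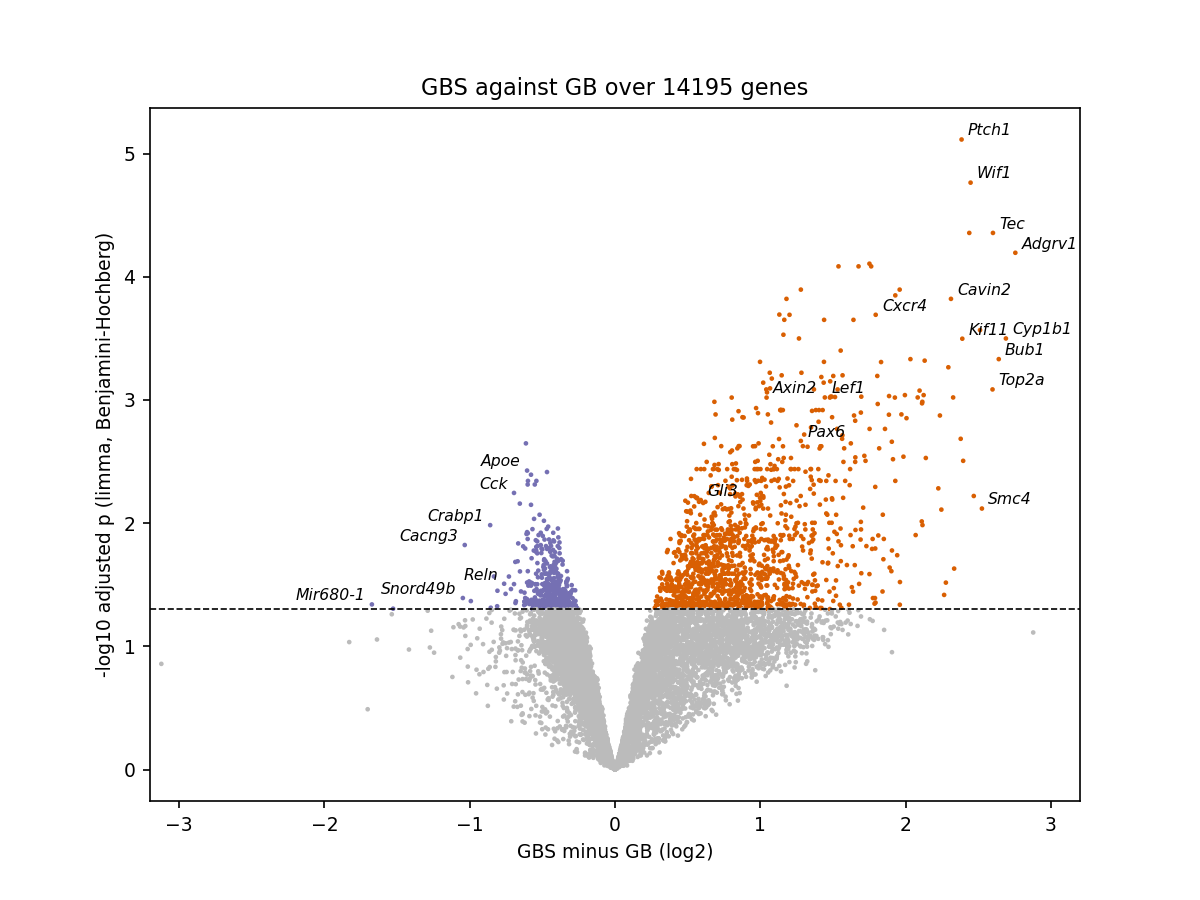
Each point is 1 of 14195 genes, with the GBS minus GB difference (log2) on the x axis and the -log10 of the limma adjusted p on the y axis. Orange points are the 1363 genes called higher, purple points the 443 called lower, grey points the rest, and the dashed line marks an adjusted p of 0.05. The orange points reach further from 0 and higher than the purple ones, with Ptch1 at the top.

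Without GB replicate 2, 976 genes (6.88%) were called higher and 183 (1.29%) lower. Of the genes called higher on all arrays, 908 were also called without that array, which is 66.6% of the longer list and 93.0% of the shorter. Of the genes called lower, 132 were called in both fits, which is 29.8% and 72.1%. All 1363 and all 443 genes kept the sign of their difference, but 1362 and 442 of them had GBS and GB arrays that did not overlap. For such genes leaving out a GB array cannot change the sign. Of these 2 fits, only the one without GB replicate 2 called another 68 genes higher and 51 lower. Among them, and chosen after their values were seen, was Vsnl1, the neuronal calcium sensor visinin-like 1, which stood at 8.03, 6.81 and 8.53 on the GBS arrays and at 9.70, 7.95 and 9.98 on the GB arrays. GB replicate 2 lay within the GBS range for this gene, and the difference went from -1.42 ± 0.60 (SE, adjusted p = 0.106) to -2.05 ± 0.52 (adjusted p = 0.0348) without it. The same array was also the lowest of the GB arrays for Gap43, a protein of growing axons, for Gad2, the enzyme that makes GABA in nerve endings, and for Scn2a, a neuronal sodium channel, each not called on all 12 arrays and called lower without it. Scn2a has 14 probe sets, of which only the brightest was used, and its limma adjusted p without that array was 0.0499.

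**Figure D2:**
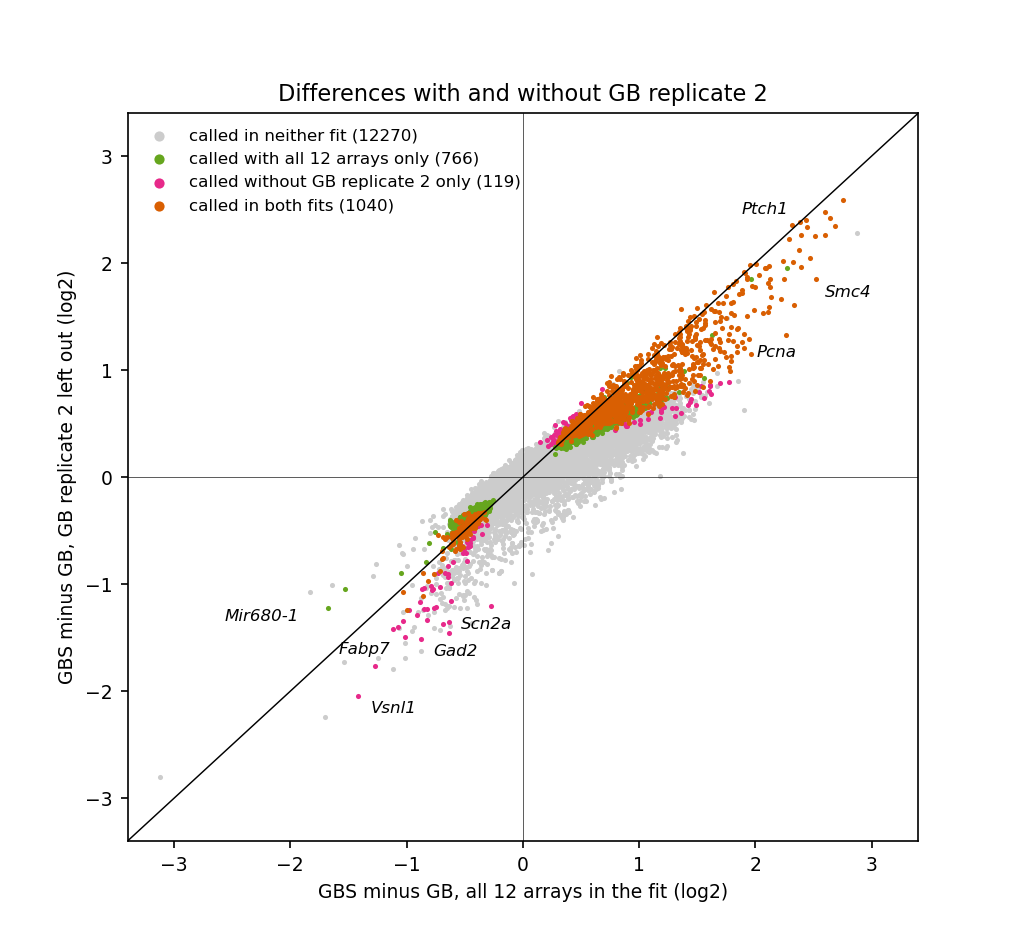
Each point is a gene, with the GBS minus GB difference (log2) in the fit on all 12 arrays on the x axis and the difference without GB replicate 2 on the y axis. Orange marks 1040 genes called in both fits, green 766 called on all 12 arrays only, pink 119 called without GB replicate 2 only and grey 12270 called in neither. Smc4 and Pcna fall below the diagonal among the rises, and Vsnl1, Gad2, Scn2a and Fabp7 fall below it among the falls.

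The alleles themselves were looked at first. Smo, the gene of which SmoM2 is an active form, stood at 7.46, 7.51 and 7.34 on the GBS arrays and at 7.24, 7.36 and 7.04 on the GB arrays. Its groups overlapped and its difference of 0.23 ± 0.11 (SE) did not pass the test (limma adjusted p = 0.128). Whether its probes separate RNA of the SmoM2 allele from that of normal Smo is not stated in the sources used here, so this is no check of the labels. Ctnnb1, whose allele both groups carry, stood at 8.86, 9.19 and 8.93 in GBS and at 8.18, 7.56 and 8.35 in GB. Each GBS array was above each GB array, and the gene rose by 0.96 ± 0.20 (adjusted p = 0.0143), a call that ended without GBS replicate 2.

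Ptch1, the hedgehog receptor and the best known target of the pathway, gave the lowest adjusted p of all genes. It stood at 9.40, 9.74 and 9.38 on the GBS arrays and at 6.96, 7.12 and 7.28 on the GB arrays, so the groups lay far apart and GB replicate 2 was the middle GB array. The rise was 2.38 ± 0.12 (SE), or 5.22-fold (adjusted p = 7.68e-06), and 2.38 (adjusted p = 1.36e-05) without GB replicate 2. The call held in every fit that left out an array.

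The rest of the pathway moved much less. Of 16 tested pathway components, 3 rose (18.8%, beside 9.6% of all genes) and 0 fell, with a median difference of 0.06 (all genes -0.11). Besides Ptch1 these were Gli3, a GLI factor that acts mainly as a repressor, and Gli2, the main activating GLI factor. Gli3 was at 7.29, 7.43 and 7.19 in GBS and at 6.75, 6.68 and 6.72 in GB, a rise of 0.59 ± 0.10 (adjusted p = 0.00649) without overlap. Gli2 rose by 0.35 ± 0.09 (adjusted p = 0.0287), and its call ended without any of the GBS arrays and without GB replicate 1. Gli1, itself a target as well as an activator, stood at 8.11, 8.07 and 7.98 in GBS and at 7.56, 7.99 and 7.63 in GB. GB replicate 2 reached the GBS range, and the difference of 0.32 ± 0.13 (adjusted p = 0.0946) became 0.46 (adjusted p = 0.0325) without that array. Hhip, a decoy that binds hedgehog ligands, gave 0.36 (adjusted p = 0.0688) and 0.45 (adjusted p = 0.0401) in the same 2 fits. The ligand genes Shh, Dhh and Ihh and the inhibitor Sufu did not pass the test.

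Of 16 tested hedgehog target genes, which overlap the first list in Ptch1, Gli1, Hhip and Boc, 3 rose (18.8%) and 0 fell, with a median of 0.12. The 3 were Ptch1, Ccnd2, a D-type cyclin that takes precursors into the cell cycle, and Bcl2, which blocks cell death. Ccnd2 was at 8.88, 9.21 and 8.62 in GBS and at 7.96, 7.55 and 7.92 in GB, a rise of 1.10 ± 0.16 (adjusted p = 0.00343). Bcl2 rose by 0.42 ± 0.11 (adjusted p = 0.0347), and its call ended without 6 of the 12 arrays, each in turn. Without GB replicate 2 the list held 6 called members, with Gli1, Hhip and the cyclin gene Ccnd1 added. Mycn, which hedgehog signals switch on in cerebellar precursors, differed by 0.00, and Foxa2, Nkx2-2 and Nkx6-1, factors of ventral identity, did not pass the test.

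**Figure D3:**
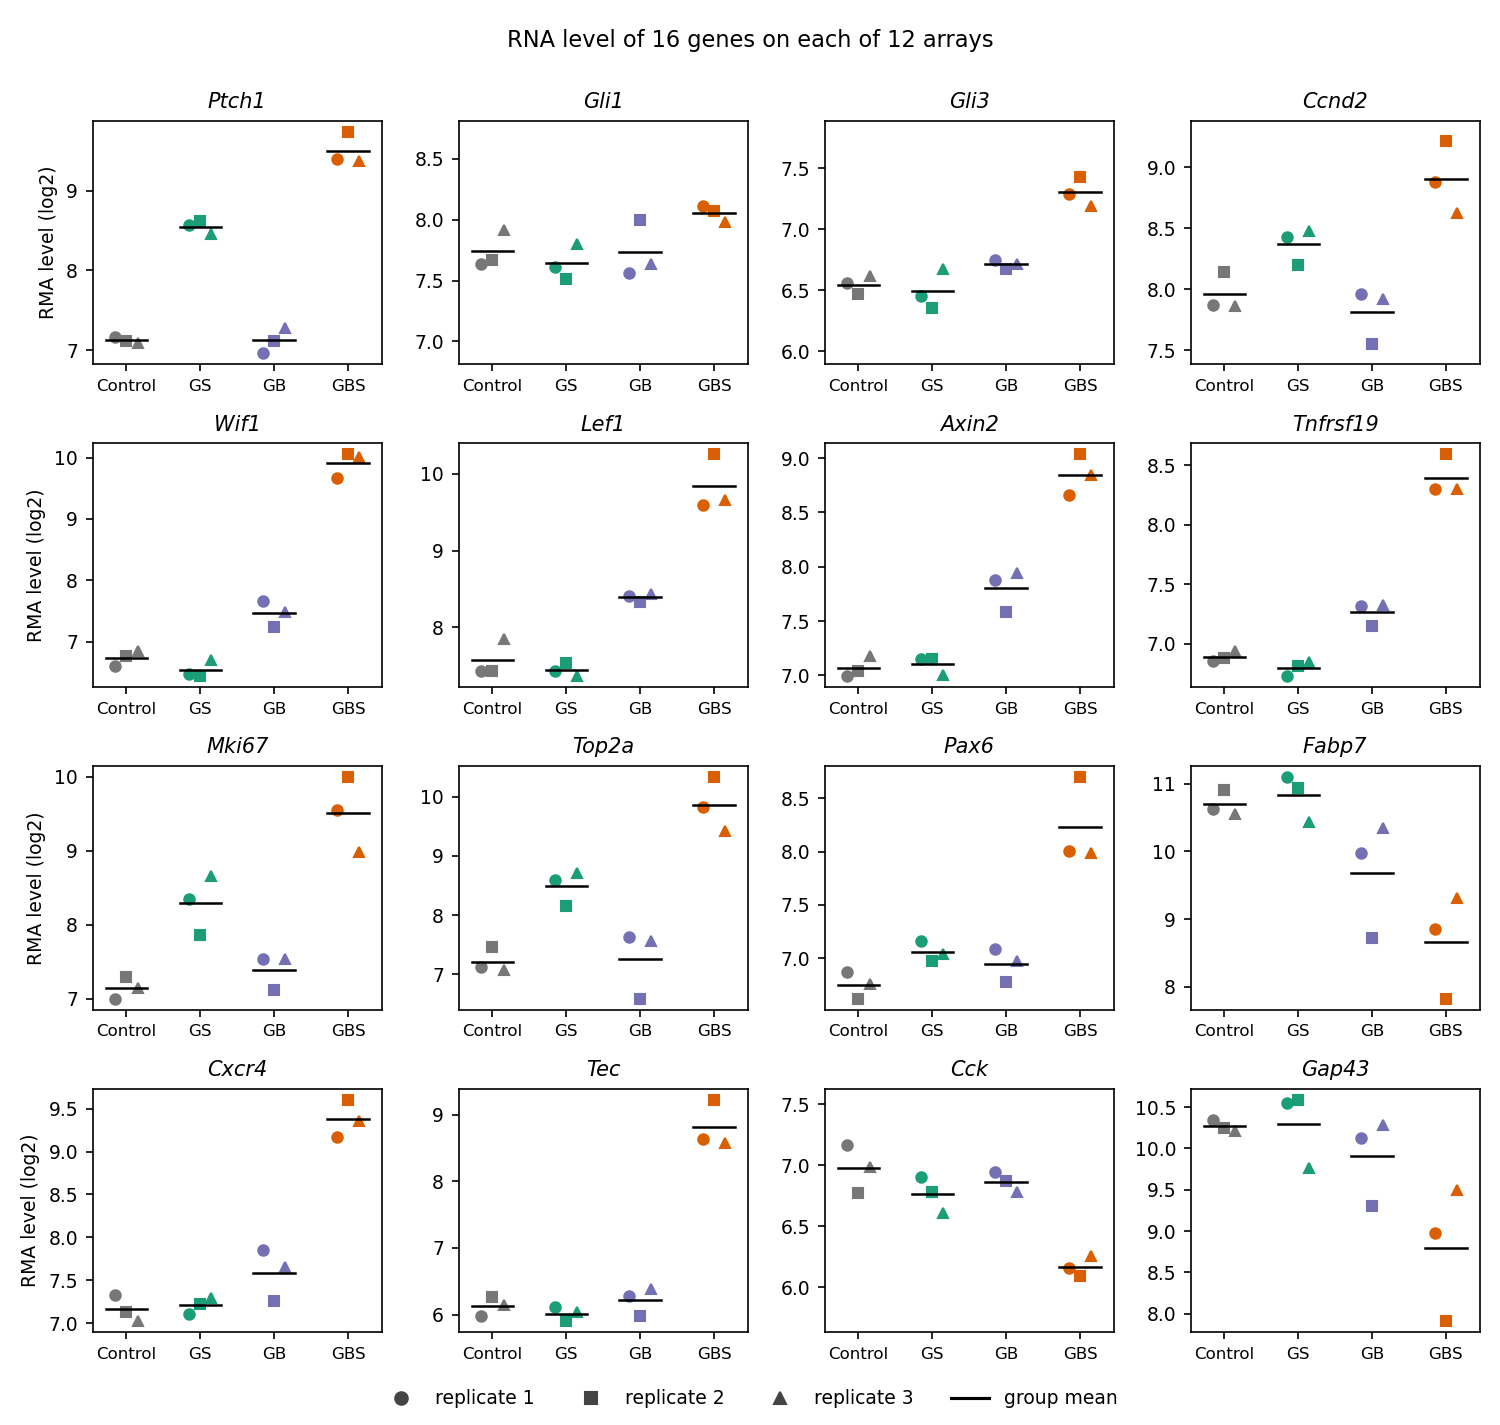
RMA levels (log2) of 16 genes on each of the 12 arrays, by group on the x axis, with symbols for the replicate number and a bar for the group mean. All panels span at least 2 log2 units, and the y axes do not start at 0. For Ptch1, Wif1, Lef1, Axin2, Tnfrsf19, Mki67, Top2a, Pax6, Cxcr4 and Tec the 3 GBS arrays are the highest of the 12. For Cck they are the lowest, and GB replicate 2 lies far below the other GB arrays for Fabp7 and Gap43.

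WNT target and feedback genes rose although both groups carry the Ctnnb1 allele. Of 17 tested, 9 rose (52.9%, beside 9.6% of all genes) and 0 fell, with a median of 0.47 against -0.11 over all genes, and 12 rose without GB replicate 2, where the median was 0.58. Wif1, a secreted WNT inhibitor, stood at 9.67, 10.05 and 10.004 on the GBS arrays and at 7.66, 7.24 and 7.49 on the GB arrays. Its rise was 2.45 ± 0.14 (SE), or 5.45-fold (limma adjusted p = 1.72e-05), with more than 2 log2 units between the nearest arrays of the groups. Lef1, through which beta-catenin binds DNA, was at 9.60, 10.26 and 9.66 in GBS and at 8.41, 8.33 and 8.44 in GB, a rise of 1.44 ± 0.17 (adjusted p = 0.000954). Axin2, part of the complex that destroys beta-catenin, rose by 1.04 ± 0.12 (adjusted p = 0.000956) from 7.88, 7.58 and 7.95 to 8.66, 9.04 and 8.85. Tnfrsf19, a receptor of the tumor necrosis factor family, rose by 1.13 ± 0.10 (adjusted p = 0.000203). For all 4 genes the lowest GBS array lay above the highest GB array. The other called members were Bmp4 (1.502), Nkd1 (1.26), Apcdd1 (1.15), Znrf3 (0.74) and Notum (0.45), the last 4 of which encode inhibitors of WNT signalling. Myc (-0.05), Lgr5 (0.07) and Dkk1 (-0.35) did not pass the test. Of the 9 calls, 8 held in every fit that left out an array, and 7 held with the Xist level as a covariate.

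Ligands and receptors of the WNT pathway were split. Of 26 tested, 5 rose (19.2%, beside 9.6%) and 0 fell, with a median of -0.18. Wnt5a, a ligand that mostly signals without beta-catenin, rose by 1.13 ± 0.19 (adjusted p = 0.00513) from 6.52, 6.27 and 6.46 to 7.28, 8.07 and 7.29. The receptor genes Fzd3 (1.55), Lrp6 (0.69), Fzd1 (0.59) and Fzd7 (0.33) also rose, and all 4 calls ended without GBS replicate 2. For Fzd3, GB replicate 2 was at 6.44 beside 7.85 and 8.02 on the other GB arrays, and the rise was 1.06 (adjusted p = 0.00858) without it.

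Genes of mitosis made the largest shift of any list. Of 21 tested, 14 rose (66.7%, beside 9.6% of all genes) and 0 fell, with a median of 1.31 against -0.11 over all genes. Bub1, a kinase of the spindle checkpoint, was at 8.12, 8.96 and 7.98 on the GBS arrays and at 6.06, 5.27 and 5.81 on the GB arrays, a rise of 2.64 ± 0.27 (SE), or 6.24-fold (limma adjusted p = 0.000466). Kif11, the motor that pushes the spindle poles apart, was at 8.74, 9.29 and 8.45 in GBS and at 6.60, 6.19 and 6.53 in GB, a rise of 2.39 ± 0.23 (adjusted p = 0.000318). Top2a, the enzyme that untangles chromosomes, rose by 2.60 ± 0.30 (adjusted p = 0.000821), and Mki67, the standard marker of cycling cells, by 2.12 ± 0.25 (adjusted p = 0.00103). Ccna2, the cyclin of S phase and early mitosis, rose by 2.03 (adjusted p = 0.000466) and Prc1, which bundles the midzone of the spindle, by 1.15 (adjusted p = 0.000631). In these 6 genes GBS replicate 2 was the highest array, and all GBS arrays stood above all GB arrays. The list was not uniform: Cdc20 (-0.07), Aurka (0.09), Plk1 (0.21), Cenpa (0.28), Aurkb (0.32), Cdk1 (0.38) and Birc5 (0.48) did not pass the test. Of the 14 calls, 13 held in every fit that left out an array, and 12 held with the Xist level as a covariate. In bulk tissue fewer cells of a type and less RNA per cell cannot be told apart, and the same holds for a rise.

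The promoters of these genes were searched for the cell cycle genes homology region, an element known from promoters of mitotic genes. Promoter sequences from RefSeq (build GRCm38.p6) run from 250 bases before to 50 after the start of the gene. The 4 shown belong to members of the list that rose, and they show where the element lies. Each is written 5′ to 3′ on the strand of its gene, and capitals mark the letters TTTGAA or, on the other strand, TTCAAA.
Top2a, chr11:99024140-99024439, minus strand: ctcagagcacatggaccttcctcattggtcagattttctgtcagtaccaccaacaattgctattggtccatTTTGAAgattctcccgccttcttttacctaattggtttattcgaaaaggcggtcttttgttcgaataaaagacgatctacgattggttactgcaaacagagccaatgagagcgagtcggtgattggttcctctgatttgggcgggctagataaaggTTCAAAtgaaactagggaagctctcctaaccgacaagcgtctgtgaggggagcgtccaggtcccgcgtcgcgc
Mki67, chr7:135716330-135716629, minus strand: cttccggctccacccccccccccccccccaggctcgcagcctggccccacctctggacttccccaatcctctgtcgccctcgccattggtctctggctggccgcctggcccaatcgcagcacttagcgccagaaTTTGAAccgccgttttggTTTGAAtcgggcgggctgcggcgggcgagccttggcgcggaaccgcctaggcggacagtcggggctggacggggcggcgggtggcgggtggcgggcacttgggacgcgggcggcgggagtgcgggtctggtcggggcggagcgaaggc
Kif11, chr19:37376132-37376431, plus strand: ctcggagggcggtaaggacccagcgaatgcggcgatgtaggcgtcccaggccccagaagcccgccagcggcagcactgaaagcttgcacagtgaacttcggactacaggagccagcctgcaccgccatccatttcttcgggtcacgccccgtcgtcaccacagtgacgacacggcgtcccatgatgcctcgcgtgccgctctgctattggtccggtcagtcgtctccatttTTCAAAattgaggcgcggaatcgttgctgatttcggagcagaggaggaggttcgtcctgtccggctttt
Prc1, chr7:80294201-80294500, plus strand: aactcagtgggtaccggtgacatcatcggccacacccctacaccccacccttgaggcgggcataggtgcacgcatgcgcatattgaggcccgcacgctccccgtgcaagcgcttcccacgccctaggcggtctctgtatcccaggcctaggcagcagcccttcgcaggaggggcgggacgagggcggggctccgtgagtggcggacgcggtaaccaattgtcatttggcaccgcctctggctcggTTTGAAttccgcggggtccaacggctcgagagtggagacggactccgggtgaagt

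Of the 12 called members of the mitosis list with a promoter in the table, 9 (75.0%) held TTTGAA on either strand, namely Ccnb2, Cenpf, Kif11, Kif23, Mki67, Ndc80, Prc1, Top2a and Ttk. Among all 32851 promoters of the same length the share was 17.9%, and among the 11254 tested genes with a promoter it was 14.5%. The share among members of the mitosis list that were not called was not counted. These shares thus do not set the called members apart from the rest of the list. The core letters CTTTGA of TCF and LEF sites, which overlap that element in TTTGA, were found in 2 of 6 called WNT target genes with a promoter (Lef1 and Tnfrsf19), beside 5257 of all 32851 promoters. The GLI consensus GACCACCCA was found in 0 of 2 called hedgehog target genes with a promoter, beside 0.25% of all promoters. A match is a description of letters in this window, and its absence says nothing about a factor.

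DNA replication genes rose in part. Of 22 tested, 11 rose (50%, beside 9.6%) and 0 fell, with a median of 0.44. Mcm6, a subunit of the helicase that opens DNA for copying, was at 9.07, 9.76 and 8.51 in GBS and at 6.95, 6.68 and 6.82 in GB, a rise of 2.29 ± 0.24 (adjusted p = 0.000543). Its partner subunits gave 0.84 for Mcm4, which was called, and 0.23 for Mcm2, 0.30 for Mcm3, 0.03 for Mcm5 and 0.18 for Mcm7, which were not. Rrm1, part of the enzyme that makes the building blocks of DNA, rose by 1.41 ± 0.20 (adjusted p = 0.00238). E2f8, a repressor of the cell cycle program, rose by 0.93 (adjusted p = 0.00486) and Rfc4, a subunit of the clamp loader, by 1.0 (adjusted p = 0.0066). Pcna, the clamp itself, showed how 1 array can set a size: it was at 10.67, 10.98 and 10.30 in GBS and at 9.38, 7.41 and 9.33 in GB, and its rise was 1.94 on all arrays and 1.30 (adjusted p = 0.00222) without GB replicate 2. Of the 11 calls, 6 held in every fit that left out an array, 4 ended without GBS replicate 2 and 3 held with the Xist level as a covariate.

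The 15 largest rises, by the rule that leaves out predicted genes and genes whose arrays overlap, were Adgrv1, Cyp1b1, Bub1, Tec, Top2a, Smc4, Tmod3, Dcn, Wif1, Cenpk, Kif11, Ptch1, Hells, Stxbp4 and Plod2. Adgrv1, a very large adhesion receptor, rose most, by 2.75 ± 0.19 (SE), or 6.75-fold (limma adjusted p = 6.38e-05). It was at 9.33, 9.78 and 9.04 on the GBS arrays and at 6.86, 6.296 and 6.74 on the GB arrays. Cyp1b1, a cytochrome that oxidises steroids and retinoids, was at 10.56, 10.94 and 10.56 in GBS and at 8.09, 7.32 and 8.58 in GB, a rise of 2.69 ± 0.26 (adjusted p = 0.000317). Tec, a tyrosine kinase best known from blood cells, rose by 2.60 ± 0.17 (adjusted p = 4.41e-05) from 6.27, 5.98 and 6.39 to 8.64, 9.22 and 8.58. Each of the 3 had its GBS arrays more than 1.5 log2 units above its GB arrays. Dcn, the matrix proteoglycan decorin, was at 10.65, 10.63 and 10.67 in GBS and at 8.35, 7.35 and 8.85 in GB, so the spread lay in the GB arrays, and it rose by 2.47 ± 0.42 (adjusted p = 0.00602). Smc4, a subunit of condensin, rose by 2.52 ± 0.45 (adjusted p = 0.00761) and by 1.85 (adjusted p = 0.000665) without GB replicate 2, which was at 5.95 beside 7.97 and 7.95. Stxbp4, which binds syntaxin, lost its call without GBS replicate 2 or GBS replicate 3, and it was the exception among the 15. Of the 15, 12 kept their call with the Xist level as a covariate.

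Markers of radial glia, the cells in which Cre is active, rose in part. Of 18 tested, 6 rose (33.3%, beside 9.6% of all genes) and 0 fell, while the median was 0.02. Prom1, a protein of the apical membrane of neural stem cells, was at 8.59, 9.08 and 8.66 in GBS and at 7.38, 6.92 and 7.33 in GB, a rise of 1.57 ± 0.17 (limma adjusted p = 0.000631). Pax6, a transcription factor of cortical radial glia, rose by 1.28 ± 0.18 (adjusted p = 0.00215) from 7.09, 6.78 and 6.98 to 8.002, 8.70 and 7.99. Vim, an intermediate filament of radial glia, rose by 1.29 (adjusted p = 0.00237) and Slc1a3, which takes up glutamate, by 1.12 (adjusted p = 0.00303), with no overlap between groups in any of the 4. Nfia (1.07) and Sox2 (0.51) were the other calls, and that of Sox2 ended without 8 of the 12 arrays, each in turn. Fabp7, a fatty acid binding protein of radial glia, went the other way. It stood at 8.85, 7.82 and 9.32 on the GBS arrays and at 9.98, 8.72 and 10.35 on the GB arrays, where GB replicate 2 fell among the GBS arrays, and its difference was -1.01 ± 0.43 (adjusted p = 0.105) with that array and -1.496 (adjusted p = 0.0249) without it. Sox9 (0.01), Hes1 (0.02) and Hes5 (-0.17) did not pass the test. The summed level of the list, on a linear scale, was 6347 to 6849 on the GBS arrays and 3788 to 5889 on the GB arrays.

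Genes of the dorsal forebrain rose in several cases. Of 15 tested patterning genes, 6 rose (40%, beside 9.6%) and 0 fell, with a median of 0.41 that was 0.13 without GB replicate 2, where 4 were called. Emx2, a homeobox gene of the medial cortex and hem, was at 8.12, 8.60 and 8.07 in GBS and at 7.01, 6.84 and 7.08 in GB, a rise of 1.28 ± 0.14 (adjusted p = 0.000601). Zic1, a zinc finger factor of the dorsal midline, rose by 1.36 ± 0.26 (adjusted p = 0.0112) from 7.86, 7.60 and 8.09 to 8.73, 9.76 and 9.15. Dmrta1 (0.84), Gli3 (0.59), Zic2 (0.63) and Lhx9 (1.18) were the other calls, and those of Zic2 and Lhx9 ended without GB replicate 2. Emx1 (-0.19), Lhx2 (0.53) and Dmrt3 (-0.14) did not pass the test.

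The choroid plexus and hem list gave 2 rises (15.4%, beside 9.6% of all genes) and 0 falls among 13 tested genes, with a median of -0.19. Clic6, a chloride channel protein of the plexus, was at 7.99, 9.08 and 7.93 in GBS and at 6.21, 6.31 and 6.46 in GB, a rise of 2.01 ± 0.26 (adjusted p = 0.00141). Sostdc1, a secreted inhibitor of BMP and WNT signals, rose by 1.69 ± 0.21 (adjusted p = 0.00127) from 7.45, 7.05 and 7.51 to 8.47, 9.28 and 9.33. Ttr, the main secreted protein of the plexus, was at 5.63, 5.93 and 5.72 in GBS and at 5.79, 6.39 and 10.21 in GB. Its level thus varied among arrays of the same genotype, and its difference of -1.70 did not pass the test (adjusted p = 0.324).

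Among signalling lists with few calls, Bmp4, a ligand of the BMP pathway, was at 8.14, 8.88 and 8.54 in GBS and at 6.91, 7.18 and 6.97 in GB, a rise of 1.502 ± 0.16 (adjusted p = 0.000639). Of 17 tested BMP genes, 2 rose (11.8%, near the 9.6% of all genes) and 0 fell, with a median of -0.07. The second was the receptor gene Bmpr1a, whose rise of 1.79 (adjusted p = 0.0406) was 1.13 without GB replicate 2 and lost its call without 8 of the 12 arrays, each in turn. Of 16 Notch genes 1 rose (6.25%, below the 9.6% of all genes) and 0 fell. It was Rbpj, the DNA binding partner of Notch, with a rise of 0.54 ± 0.10 (adjusted p = 0.0108). The mean over its probe sets in place of the brightest gave -0.05. Of 16 genes of the FGF response, 1 rose (6.25%) and 0 fell. This was Spred1, a brake on RAS signalling, with a rise of 1.16 (adjusted p = 0.041). That rise was 0.72 without GB replicate 2, and its call ended without 8 of the 12 arrays, each in turn. Trp53inp1 (0.71, adjusted p = 0.0037) and Mdm2 (0.95, adjusted p = 0.0394), both targets of p53, were the calls among 9 genes of that list (22.2%). The value for Mdm2 was 0.61 (adjusted p = 0.0516) without GB replicate 2, and its call also ended without 7 other arrays, each in turn. Of 14 immediate early and heat shock genes, the chaperone genes Hspa5 (1.34) and Hsph1 (1.21) rose and Npas4 (-0.34), which neuronal activity switches on, fell, and the calls of Hspa5 and Npas4 ended without GBS replicate 2. Of 11 genes of the LIN28 axis, which marks embryonal tumors with multilayered rosettes, 1 rose and 1 fell (9.09% each). Igf2bp3 rose by 0.58 (adjusted p = 0.0235), a call that ended without GBS replicate 2, and Crabp1 fell. Lin28a, the RNA binding protein itself, stood at 6.74, 6.52 and 6.73 in GBS and at 6.86, 7.29 and 6.96 in GB, and its difference of -0.37 ± 0.12 did not pass the test (adjusted p = 0.0619).

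The list of matrix and adhesion genes was divided between 3 large rises and no other call. Of 19 tested, 3 rose (15.8%, beside 9.6% of all genes) and 0 fell, with a median of -0.17. The 3 were Dcn, Adamts19 and Cyp1b1, which is on the list although it encodes a cytochrome and not a matrix protein. The collagen genes Col1a1 (-0.28), Col1a2 (-0.27) and Col3a1 (-0.28) did not pass the test. Adamts19, a secreted protease, was at 9.40, 9.72 and 9.62 in GBS and at 7.82, 6.76 and 7.79 in GB, a rise of 2.12 ± 0.25 (adjusted p = 0.000913). Of 9 markers of meninges and fibroblasts, which overlap that list, 2 rose and 2 fell (22.2% each), with a median of -0.28. Dcn and Zic1 rose, and Slc6a13 (-0.69) and Cxcl12 (-0.42) fell. The summed level of these 9 markers was 3045 to 3383 on the GBS arrays and 1705 to 1925 on the GB arrays. Dcn made most of that gap, with 1588 to 1634 and 163 to 462, and without it the sums overlapped at 1443 to 1795 and 1407 to 1542. The part of these markers in the results for matrix genes was not tested.

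Falls were small, and most of the named calls ended when 1 array was left out. The 15 largest, by the same rule as for the rises, were Mir680-1, Mir680-2, Snord49b, Cacng3, Luzp2, Crabp1, Necab1, Pdgfra, Sla, Reln, Shisa6, Cck, Rpp25, Slc6a13 and Mrc1. Leaving out GBS replicate 2 ended the call of 13 of them, and leaving out GBS replicate 1 that of 12. Crabp1 and Cck kept it in every fit that left out an array, and of the 15 only Cck kept it with the Xist level as a covariate. A fit on the GBS and GB arrays alone called none of them (limma). Cck, a neuropeptide of the cortex, was at 6.16, 6.09 and 6.25 in GBS and at 6.95, 6.87 and 6.78 in GB, or -0.69 ± 0.12 (SE, adjusted p = 0.00568). Crabp1, which binds retinoic acid, was at 7.94, 7.44 and 7.98 in GBS and at 8.59, 8.58 and 8.77 in GB (-0.86 ± 0.16, adjusted p = 0.0104). Cacng3, which helps glutamate receptors to the surface of neurons, was at 5.38, 4.97 and 5.62 in GBS and at 6.31, 6.29 and 6.48 in GB, or 2.05-fold lower (-1.03 ± 0.22, adjusted p = 0.015). None of the 3 overlapped between the groups, which the rule that chose them required.

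The 2 largest falls were microRNA genes that encode the same mature sequence. It is shown because the 2 probe sets are, for that reason, not taken as separate evidence. Whether their probes tell the 2 genes apart was not checked. Sequences are from RefSeq (build GRCm38.p6), 5′ to 3′, with the seed, bases 2 to 8, in capitals.
mmu-miR-680 of Mir680-1, chr6:129691541-129691561, plus strand: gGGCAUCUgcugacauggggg
mmu-miR-680 of Mir680-2, chrX:144297790-144297810, plus strand: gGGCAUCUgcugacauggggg

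Mir680-1 was at 7.03, 6.88 and 7.37 on the GBS arrays and at 8.38, 9.66 and 8.25 on the GB arrays, where GB replicate 2 was the highest. Its difference of -1.67 ± 0.48 (limma adjusted p = 0.0457) was -1.22 (adjusted p = 0.103) without that array. Mir680-2 gave -1.53 (adjusted p = 0.0495) and -1.05 (adjusted p = 0.11). As the genes share their mature sequence, the 2 values are uncertain as measures of either gene. Of 124 tested microRNA genes, 3 were called higher (2.42%) and 12 lower (9.68%, beside 3.12% of all genes), with a median of -0.26. Without GB replicate 2, 1 was called lower. With the level of olfactory and vomeronasal receptor genes as a covariate, the median of the microRNA genes was -0.02.

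Of 20 tested markers of interneurons and the ventral forebrain, 0 rose and 3 fell (15%, beside 3.12% of all genes). Differences ran from -1.54 to 0.32 with a median of -0.41, beside -0.34 for olfactory and vomeronasal receptor genes and -0.29 for midbrain and hindbrain genes. The 3 called were Dlx1 (-0.57, adjusted p = 0.0454), a homeobox gene of interneuron precursors, Npy (-0.48, adjusted p = 0.044), a neuropeptide, and Lhx8 (-0.43, adjusted p = 0.0459). All 3 calls ended without GB replicate 2, and also when any of 8 other arrays was left out. Gad2 stood at 7.98, 6.51 and 8.12 in GBS and at 8.86, 7.14 and 9.24 in GB, and was not called on all 12 arrays (-0.88) but was without GB replicate 2 (-1.51, adjusted p = 0.0442). The summed level of the list was 2453 to 3593 on the GBS arrays and 3648 to 5055 on the GB arrays, so the groups did not overlap.

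Genes of postmitotic neurons were called in 1 case of 18 (5.56%, beside 3.12% of all genes lower). This was Camk2b, a subunit of a calcium-dependent kinase, with a difference of -0.54 (adjusted p = 0.0167). The median was -0.31, and -0.59 without GB replicate 2, where Gap43 and Mapt were called lower as well. Gap43 was at 8.97, 7.91 and 9.495 in GBS and at 10.13, 9.30 and 10.28 in GB, with -1.11 ± 0.38 (limma adjusted p = 0.07) on all arrays and -1.42 (adjusted p = 0.0396) without GB replicate 2. The summed level of the list was 6139 to 10151 in GBS and 4920 to 12507 in GB, so the GB arrays lay on both sides of the GBS arrays. Of 16 synaptic receptors and channels, 2 fell (12.5%) and 0 rose, with a median of -0.38. These were Chrm3 (-0.34) and Kcna1 (-0.32). Without GB replicate 2 the median was -0.58, both calls ended, and Grm5, Gabra5 and Scn2a were called lower.

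In the lineage from cortical precursor to excitatory neuron, 3 of 13 genes rose (23.1%, beside 9.6% of all genes) and 1 fell (7.69%, beside 3.12%). Nhlh1 (0.76, adjusted p = 0.0222), Neurog2 (0.60, adjusted p = 0.0297) and Btg2 (0.56, adjusted p = 0.0456), factors of newly born neurons and their precursors, were the rises. Slc17a7, a glutamate transporter of mature excitatory neurons, was the fall (-0.44, adjusted p = 0.0246). All 4 calls ended without GBS replicate 2. Eomes (0.14), Tbr1 (-0.58) and Neurod1 (0.20) did not pass the test. Of 14 layer genes, 1 rose and 1 fell (7.14% each). Cux1 rose by 0.56 and Bcl11b fell by 0.38, and neither call held without GBS replicate 2. Of 8 genes of Cajal-Retzius neurons, early neurons of the cortical surface, Cxcr4 rose and Reln fell (12.5% each). Cxcr4, a chemokine receptor that guides these and other migrating cells, was at 9.18, 9.61 and 9.36 in GBS and at 7.85, 7.25 and 7.65 in GB, a rise of 1.79 ± 0.16 (adjusted p = 0.000204). Reln, the matrix protein reelin, was at 6.86, 6.81 and 6.97 in GBS and at 7.71, 7.36 and 7.85 in GB (-0.76 ± 0.19, adjusted p = 0.031), and its call ended without any of the GBS arrays or GB replicate 1.

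Glial and immune markers were lower where they were called. Of 11 astrocyte genes, 3 fell (27.3%, beside 3.12% of all genes) and 0 rose. They were Apoe, a lipid carrier, Gjb6, a gap junction protein, and Aqp4, a water channel. The calls of Gjb6 and Aqp4 ended without GBS replicate 2 or 3. Apoe was at 7.73, 7.54 and 7.70 in GBS and at 8.11, 8.39 and 8.28 in GB (-0.60 ± 0.09, adjusted p = 0.00374), and its call held in every fit that left out an array. Gfap (-0.46) and Gja1 (0.71) did not pass the test. Pdgfra (-0.83, adjusted p = 0.0271) and Olig1 (-0.42, adjusted p = 0.0218), genes of oligodendrocyte precursors, fell among 9 of that lineage (22.2%). The call of each ended without GBS replicate 2. Of 8 microglia and macrophage markers, Mrc1 (-0.68), C1qc (-0.41) and Csf1r (-0.37) fell (37.5%) and 0 rose. Their summed level was 801 to 852 on the GBS arrays and 969 to 1224 on the GB arrays, and all 3 calls ended when any of 5 arrays was left out, namely replicates 1 and 2 of GBS, 2 of GS, and 2 and 3 of Control. A further fit held the level of olfactory and vomeronasal receptor genes as a covariate. In it the median of the microglia list was -0.09 in place of -0.39. The calls of Apoe and Mrc1 held in that fit, and those of Gjb6, Aqp4, Pdgfra, Olig1, C1qc and Csf1r ended.

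Of 14 endothelial and pericyte genes, Abcc9 rose (0.34, adjusted p = 0.0456), or 7.14% beside 9.6% of all genes, and 0 fell. Of 7 genes of ependyma and motile cilia, Mcidas fell (-0.45, adjusted p = 0.047), or 14.3% beside 3.12% of all genes. Both calls ended without 9 of the 12 arrays, each in turn. The 11 tested midbrain and hindbrain genes, which the forebrain should lack, gave 0 calls in limma, with differences from -0.42 to -0.19 and a median of -0.29. Both tested erythroid genes, Alas2 and Slc4a1, gave none. Olfactory and vomeronasal receptor genes, which the brain hardly uses, gave 0 rises and 17 falls among 207 tested (8.21%), with a median of -0.34. Without GB replicate 2 they gave 3 falls. The median of these receptor genes lay near that of several marker lists with few calls. Cytosolic ribosomal proteins gave 19 rises (33.3%) and 0 falls among 57 tested, with a median of 0.50, and 3 rises without GB replicate 2. For comparison, the mitosis and WNT target lists held 14 and 12 called genes without that array.

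**Figure D4:**
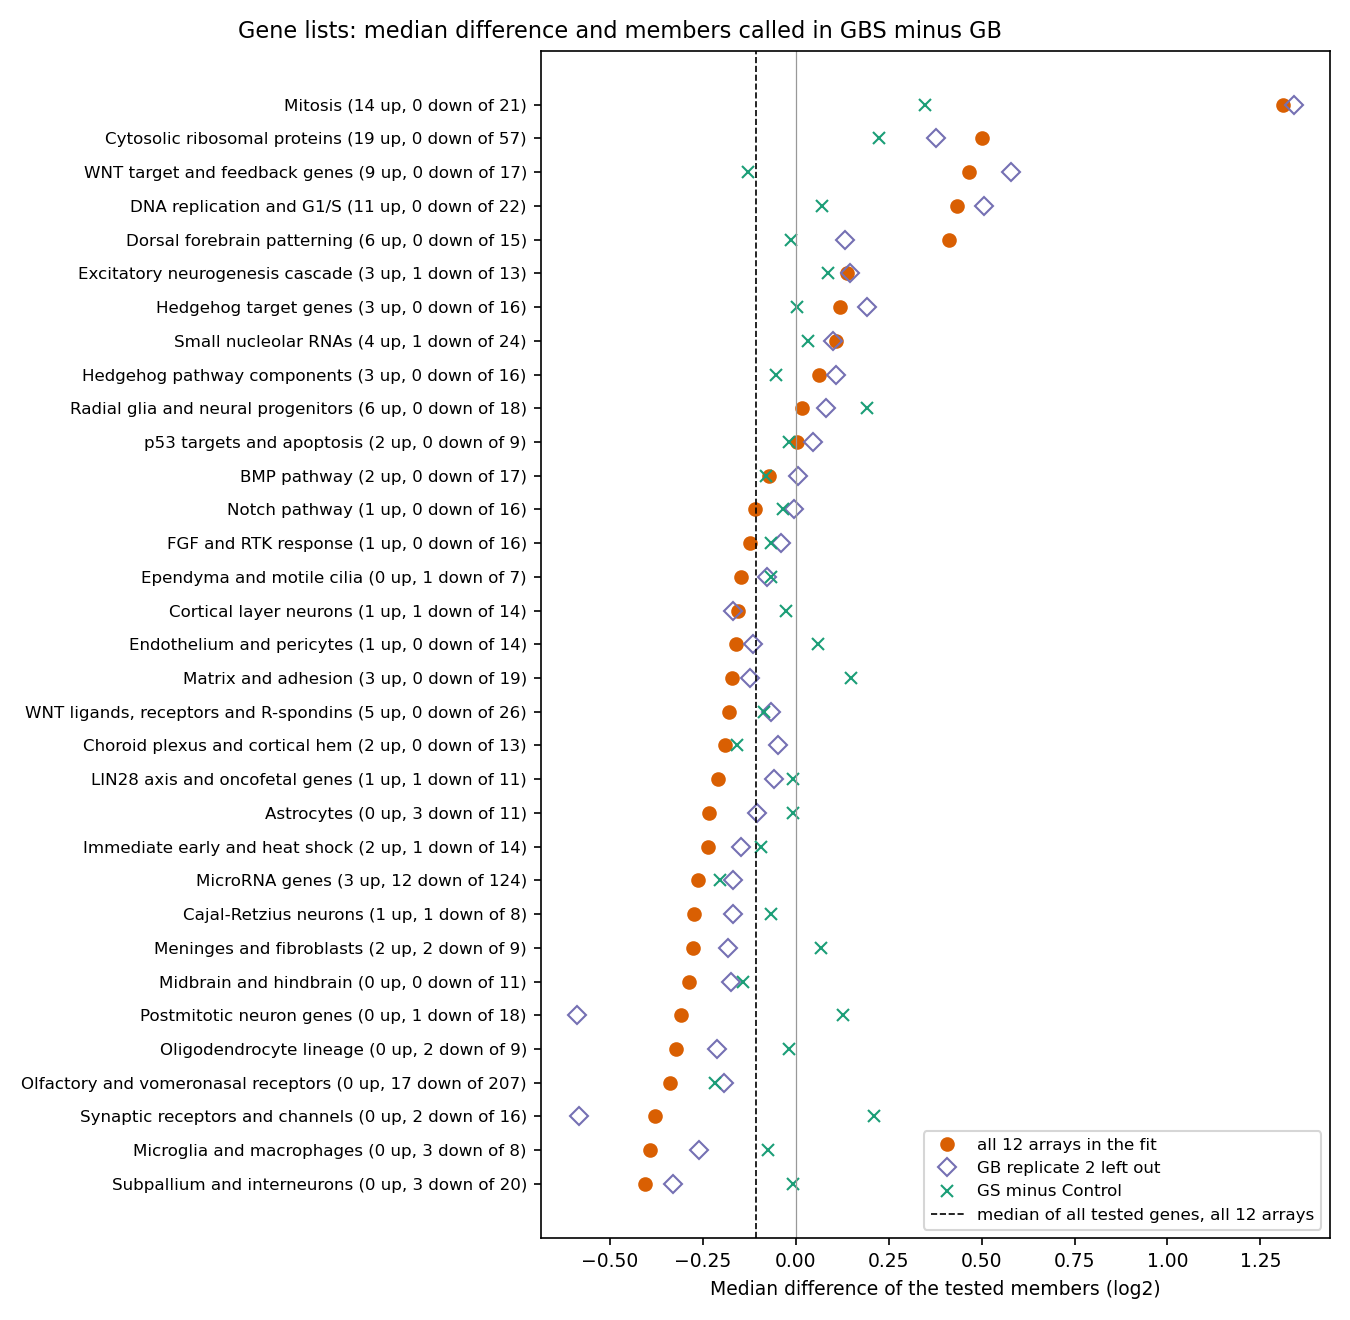
Median GBS minus GB difference (log2, x axis) of the tested members of each gene list, with all 12 arrays in the fit (filled circles) and without GB replicate 2 (open diamonds), beside the median GS minus Control difference (crosses). The labels give the members called higher and lower, and the dashed line marks the median of all tested genes (-0.11). Mitosis (1.31), ribosomal proteins (0.50) and WNT targets (0.47) lie furthest to the right, and for the WNT targets the cross lies below 0.

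GS mice carried Cre and SmoM2 without the Ctnnb1 allele, and GS minus Control shares no array with GBS minus GB. Control mice carried both alleles but no Cre. GS minus Control thus differs in Cre and in the unrecombined Ctnnb1 allele, as well as in active SmoM2. The part of Cre in GS minus Control was not tested. Xist was at 4.87, 10.83 and 10.28 on the GS arrays and at 4.91 to 5.02 on the Control arrays. It was thus higher than in Control on 2 of 3 GS arrays, whereas in GBS minus GB it was higher than in GBS on 2 of 3 GB arrays. In GS minus Control 3 genes (0.0211%) were called, all higher. Ptch1 was one, at 8.57, 8.62 and 8.46 on the GS arrays and 7.17, 7.12 and 7.09 on the Control arrays, a rise of 1.43 ± 0.12 (limma adjusted p = 0.00164). The others were Prm1, a protamine known from sperm, and the predicted gene Gm10561. At an unadjusted p under 0.05 there were 508 genes higher and 331 lower. Of the 1363 genes that rose in GBS, 92.7% had a GS minus Control difference above 0, beside 46.4% of all tested genes, and their median difference there was 0.27. Of the 443 that fell, 77.4% lay below 0 there, with a median of -0.09. The 3 arrays that deviate together lie in both comparisons (GB replicate 2, GS replicate 3 and Control replicate 3). Olfactory and vomeronasal receptor genes also had medians below 0 in both, at -0.34 in GBS minus GB and -0.22 in GS minus Control. The part of such shifts between arrays in the shared directions was not tested. Among the mitotic genes, Mki67 gave 1.15 and Top2a 1.27 in GS minus Control, without passing the test (adjusted p = 0.645 for both). The mitosis list as a whole had a median of 0.35 there, against 1.31 in GBS minus GB.

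Whether the GBS minus GB difference of a gene was unlike its GS minus Control difference was tested as an interaction, (GBS minus GB) minus (GS minus Control). Only GS minus Control includes Cre, so a dependence on the Ctnnb1 allele and an effect of Cre cannot be told apart here. The interaction was positive for 46 genes (0.324%) and negative for 1 (0.00704%), and 687 and 471 genes had an unadjusted p under 0.05. All 46 were also called higher in GBS than in GB, and 45 were called without GB replicate 2. Their median GBS minus GB difference was 1.44, from 0.68 to 2.75, while the median GS minus Control difference was -0.01 and lay within 0.3 of 0 in 43 of the 46. The interaction that picked the 46 is computed from both differences, so these values are no separate evidence. With the Xist level as a covariate the interaction passed for 0 genes in limma, while its size stayed close for most of the named genes (2.71 and 2.62 for Tec, 2.64 and 2.57 for Wif1, 0.96 and 1.11 for Ptch1, without and with the covariate) and all 46 were still called higher in GBS than in GB. Of the 9 arrays that are in GS, Control or GBS, leaving out any but GBS replicate 1 moved the count of 46 by more than 1.5 times, down to 14 without GS replicate 2, and so did leaving out GB replicate 1 (22).

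The largest interactions were those of Tec, Wif1, Cyp1b1, Cavin2 and Adamts19. Tec was at 6.11, 5.90 and 6.03 on the GS arrays and at 5.98, 6.26 and 6.14 on the Control arrays, which overlapped. Against its rise of 2.60 in GBS minus GB this made an interaction of 2.71 ± 0.24 (SE, limma adjusted p = 0.00174). Wif1 was at 6.48, 6.44 and 6.70 in GS and at 6.60, 6.77 and 6.84 in Control, an interaction of 2.64 ± 0.20 (adjusted p = 0.000576). Cavin2, a coat protein of caveolae, rose by 2.31 ± 0.20 in GBS, from 5.84, 6.00 and 5.89 to 8.07, 8.77 and 7.83, and differed by -0.02 between GS and Control. The interaction for it was 2.33 (adjusted p = 0.00506). Fst, a secreted binder of activin chosen after its values were seen, behaved alike, with 1.96 in GBS minus GB and -0.01 in GS minus Control (adjusted p = 0.00476). Of the 17 tested WNT target genes, 6 had a called interaction, namely Wif1, Lef1, Axin2, Tnfrsf19, Apcdd1 and Bmp4, and the list's median GS minus Control difference was -0.13. Ptch1 itself had one of 0.96 ± 0.17 (adjusted p = 0.0424), its rise being 2.38 in GBS minus GB and 1.43 in GS minus Control. Prm1 was the 1 gene with a negative interaction (-2.17, adjusted p = 0.0113), at 9.66, 9.13 and 9.40 on the GS arrays, 7.37, 7.18 and 7.38 on the Control arrays, 8.60, 7.99 and 8.87 on the GBS arrays and 8.62, 8.66 and 8.43 on the GB arrays. No interaction was called among the mitotic genes, and a p that misses the threshold does not show equal changes.

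**Figure D5:**
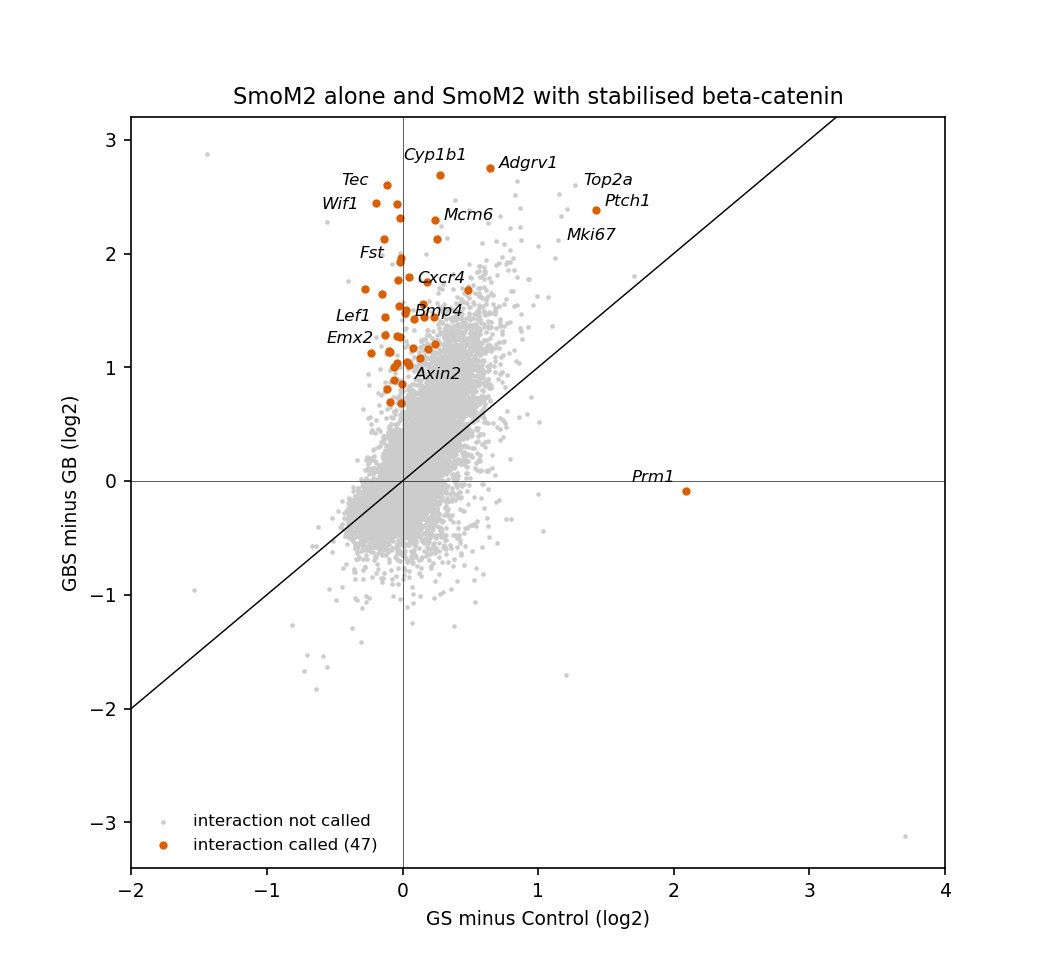
Each point is a gene, with the GS minus Control difference (log2) on the x axis and the GBS minus GB difference (log2) on the y axis, and the diagonal marks equal differences. Orange points are the 47 genes with a called interaction. Of these, 46 lie above the diagonal, most near 0 on the x axis, Ptch1 lies at 1.43 and 2.38, and Prm1 lies alone at 2.09 and -0.08.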

How the data were processed

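Biotin-labelled total RNA of 12 newborn mouse samples was read on Affymetrix arrays of the type Mouse Gene 1.0 ST, per the labels' protocols. The deposited values are on a log2 scale and were made by the authors, whose processing notes name RMA and Affymetrix Expression Console. The version, probe set library and genome build were not given in the sources used here. RMA fits all arrays together, so 1 array that stands apart can move values on the others. Every value column was matched to a sample by its title. For each gene 1 probe set stands, the brightest on average over the 12 arrays among those with a single symbol, and genes above the 40th percentile of an array on at least 3 arrays were tested, which left 14195 of 19936. Differences were tested with limma 3.58.1 in R 4.3.3 (lmFit, eBayes) on 4 group means over 12 arrays, with 8 residual and 2.9 prior degrees of freedom and Benjamini-Hochberg adjustment over all tested genes. The script was tested on simulated data. The number of arrays limits the precision. Named by rule were Smo, Ctnnb1, Ptch1, Gli1, Gli2, Gli3, Hhip, Axin2, Lef1, Wif1, Mki67, Pax6, Fabp7 and Lin28a at any value, then the 15 strongest rises and 15 strongest falls among called genes whose arrays do not overlap (without predicted genes, receptor families of smell and immunity, and X-inactivation and Y-linked genes), up to 4 called members of each list with the lowest adjusted p and any that moved against their list, and the 5 largest called interactions of each sign. A further gene of the rule is not reported here. Other genes were chosen after their values were seen, to show members of a list that passed or missed the test. Genes, lists and tests were chosen with earlier results of these data known. Alternatives were other normalizations, filters, probe set rules and variance models, covariates, a replicate block and leaving out arrays. Fits without GB replicate 2 on the 5 remaining GBS and GB arrays were added after seeing the data.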

Additional observations from a re-analysis of the deposited data

Results flagged for a closer look

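For 16 of the named genes the GBS minus GB difference was unlike the GS minus Control difference, and only the latter includes Cre. The test was that of the interaction (GBS minus GB) minus (GS minus Control) in limma, log2 scale. Among genes of WNT signalling it was 2.643 for Wif1, 1.572 for Lef1, 1.224 for Tnfrsf19 and 1.01 for Axin2. Among other secreted or surface proteins it was 2.257 for Adamts19, 2.109 for Adgrv1, 1.966 for Sostdc1, 1.749 for Cxcr4, 1.478 for Bmp4 and 0.957 for Ptch1. It was 2.714 for Tec, 2.409 for Cyp1b1, 2.328 for Cavin2, 2.053 for Mcm6 and 1.413 for Emx2. Prm1 alone had a negative value, -2.172. Adjusted p-values of the 16 ran from 0.000576 to 0.0424, and all 16 passed without GB replicate 2. With the Xist level as a covariate none of the 16 passed (adjusted p from 0.0651 to 0.901), while the sizes moved little for most: 2.62 for Tec, 2.57 for Wif1, 2.50 for Cavin2, 1.59 for Lef1, 1.27 for Tnfrsf19 and 0.965 for Axin2, with 1.82 for Adgrv1 and Mcm6 and -2.53 for Prm1 further off.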

How the results depend on the processing

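Calls depended on the set of arrays and the variance model. With the Xist level as a covariate, all 1363 higher and 443 lower genes kept their sign. They kept it without GB replicate 2 as well, but 1362 and 442 of them had GBS and GB arrays that did not overlap. For such genes leaving out a GB array cannot change the sign. Of 98 named genes 92 were called and 22 kept their call under every alternative run, apart from the fit added after seeing the data. Counts of higher genes were 2353 with array weights, which gave GB replicate 2 the lowest weight (0.0817), 77 with only the GBS and GB arrays (1702 without GB replicate 2 as well), 246 with the Xist level and 522 with the receptor-gene level as a covariate, 2434 without the 3 arrays that deviate together, 331 at an adjusted p under 0.01 and 463 at 2-fold or more. Leaving out 1 array gave 396 to 2199. Counts of lower genes were 277 with quantile normalization, 256 with arrays centred on their medians, 1247, 0 (440), 16 with Xist, 1007 without the 3 arrays, 14 at 0.01 and 4 at 2-fold, in the same order, and 25 to 1045 without 1 array. Positive interactions numbered 27 with quantile normalization, 387 with array weights, 0 with Xist, 146 with the receptor level, 120 without the 3 arrays and 12 at 0.01, and 14 to 56 without 1 array. Negative ones numbered 2, 512, 0, 103, 293 and 0 in that order, 3 with trend and robust, and 1 to 4 without 1 array. GS minus Control called 6358 genes with array weights and 1714 without the 3 arrays. The cause of these shifts was not tested.

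With the replicate number as a replicate block, counts were 654 higher, 71 lower and 16 positive interactions. The numbers were not taken as pairs, since deviations of same-numbered GBS and GB arrays correlated at -0.481, -0.234 and 0.191.

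Direction reversed for Prm1, not called in GBS minus GB (-0.084), with array weights (0.081), with the receptor level (0.006) and across fits without 1 array (-0.277 to 0.165), and for Rbpj with the mean of its probe sets (-0.051). Probe sets near background limit what can be seen among dim genes.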
